A study of Homo sapiens with 9 samples.

Results

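The genes described here are 10 regulators of the G1 phase of the cell cycle: the D cyclins CCND1, CCND2 and CCND3, the E cyclins CCNE1 and CCNE2, the kinases CDK4 and CDK6, and the CDK inhibitors CDKN1A (p21), CDKN1B (p27) and CDKN2C (p18). They were taken by name from the 62663 genes of Gencode v44. A read pair counted for a gene when its 5′ and 3′ ends lay on the gene's strand within 1000 bp of the gene body. All 10 had read pairs and 9 passed the filter on low counts that left 12135 genes for testing. The data are TIF-Seq2 libraries, in which the capped 5′ end and the poly(A) site of the same RNA molecule are sequenced as a pair. The cells were K562, an established human chronic myeloid leukemia line that carries the BCR-ABL1 fusion kinase. They were exposed for 24 h to 1 μM imatinib, an inhibitor of ABL kinases, or to its solvent DMSO, with 2 libraries of each. Both groups are the same cell line, and the methods of the study call the 2 libraries of a group biological replicates.

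In G1, D cyclins bind CDK4 or CDK6 and E cyclins bind CDK2, and both kinds of complex phosphorylate the retinoblastoma protein, which releases E2F factors that drive genes of DNA synthesis. Inhibitors of the Cip/Kip family, such as p21 and p27, bind cyclin-CDK complexes, whereas those of the INK4 family, such as p18, bind CDK4 and CDK6 and keep the D cyclins off. In chronic myeloid leukemia cells BCR-ABL1 signaling is known to favor cyclin D expression and the loss of p27.

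The libraries held from 2263121 to 5135829 read pairs, and 97.5% to 98.5% of them lay in a gene. Replicates correlated with r = 0.980 (DMSO) and r = 0.955 (imatinib) over the tested genes on the log2 scale. Of the tested genes, 1054 rose and 746 fell after imatinib at an adjusted p under 0.05, which is 8.69% and 6.15%, and the median log2 fold change was 0.03. Of 11 markers of K562 and erythroid cells, 9 rose and 0 fell, and their summed level went from 6233–7515 to 20375–20636 CPM (read pairs scaled to a common library total). For other lineages the summed levels were at most 2.69 CPM for 5 megakaryocyte genes (GP9, GP1BA and PPBP at 0), at most 131 CPM for 7 granulocyte and monocyte genes (ELANE and CD14 at 0, and nearly all of the sum from LYZ, which encodes lysozyme, with 107 and 129 CPM in DMSO and 34.5 and 110.7 CPM in imatinib), and at most 5.78 CPM for 4 fibroblast genes (PDGFRA at 0). The 6 lymphoid genes summed to 79.8–89.5 CPM in DMSO and 16.4–21.2 CPM in imatinib, and of these CD3D, a subunit of the T cell receptor complex, fell (log2 fold change −3.88, edgeR adjusted p = 0.0012), with CD3E and MS4A1 at 0. The part of the erythroid change in the results below was not tested, and in bulk RNA fewer cells of a type and less RNA per cell cannot be told apart.

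The poly(A) sites that the results turn on are shown first, each as the 30 nt of the hg38 reference that end at its most used 3′ position, on the strand of the gene, with a poly(A) signal (AATAAA or ATTAAA) in capitals where this window holds one. Of 18 poly(A) regions that each took at least 5% of a member's read pairs, CCNE2 apart, 14 had a signal anywhere in the window (77.8%). It was AATAAA in 8 and ATTAAA in 6. Over all 30461 poly(A) clusters of the libraries, searched in the same window and on the same strand, 64.8% had either hexamer, 49.1% AATAAA and 17.5% ATTAAA. Unlike the 18 regions, these clusters were not limited by their share of a gene. The first set compares the short and the long ends of the D cyclin mRNAs, and the ends at the annotated 3′ ends of CCND1 and CCND2 had AATAAA whereas the short ends in their last exons had neither hexamer.
CCND1, annotated end, chr11:69654444-69654473, plus strand: aaagtctagaAATAAAactggtaaaacccc
CCND1, short 3′ UTR, chr11:69651579-69651608, plus strand: ataccccaataatcaactcgtttttatatt
CCND1, intron 4, chr11:69648677-69648706, plus strand: tttcttaaagaaagaATTAAAatgacaatc
CCND2, annotated end, chr12:4305321-4305350, plus strand: gctatttggacAATAAActcaccttgacct
CCND2, short 3′ UTR, chr12:4300191-4300220, plus strand: aaagcatttggtgcctatttgaagtacagc
CCND2, second short 3′ UTR, chr12:4300263-4300292, plus strand: atgtaaaagtaatagtaaaatgcttacagg
CCND2, intron 2, chr12:4276547-4276576, plus strand: gataatattttaATTAAAttccaaatttcc
CCND3, annotated end, chr6:41934956-41934985, minus strand: atcctactgtAATAAAgatgattgtgaaat
CCND3, end upstream of the main promoter, chr6:41991425-41991454, minus strand: taaATTAAAaagaaacaaactggtgcatcc

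The second set holds the ends of the kinases and of the inhibitors. The CDK4 end had neither hexamer and lay beside an A-rich stretch, whereas both ends of CDK6, both ends of CDKN1B shown here and the end of CDKN2C had a hexamer. The one at the CDK6 distal end begins 9 nt before the end, the nearest of those shown. Distance was not a condition for counting a hexamer.
CDK4, chr12:57748247-57748276, minus strand: ccttttttatacaggaaaaacaaaacaaag
CDK6, distal end, chr7:92604935-92604964, minus strand: aactgtagtgagtaaaattcATTAAAttcc
CDK6, proximal end, chr7:92605026-92605055, minus strand: aaaatAATAAAaacaataactttaaactgc
CDKN1B, annotated end, chr12:12722339-12722368, plus strand: aagtaatcAATAAAgaaaacttccatagct
CDKN1B, proximal end, chr12:12721786-12721815, plus strand: tgaccatctgcttttATTAAAtttgttgac
CDKN2C, chr1:50974604-50974633, plus strand: tttgtctaATTAAAacactttcaaaacagg

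CCND1 and CCND2 were the only members whose totals passed the test, and both fell after imatinib, which is 2 of 9 tested members against 14.8% of all tested genes (edgeR quasi-likelihood test, Benjamini-Hochberg adjustment over all genes). CCND3, the E cyclins, both kinases and the inhibitors did not pass. CCND1 passed the filter on low counts only through its DMSO libraries, the group where it was high, and CDKN1A was dropped by this filter. CCND1 was also called with no filter on low counts. The 9 tested members had a median log2 fold change of 0.27, with 6 fitted values above 0 and 3 below. Both imatinib libraries lay above both DMSO libraries for 4 members and below them for 2, so 6 of 9 did not overlap. Over all tested genes 31.0% lay above, 29.1% below and 60.0% did not overlap in either direction. The plot of levels by library shows each of these values.

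**Figure D1:**
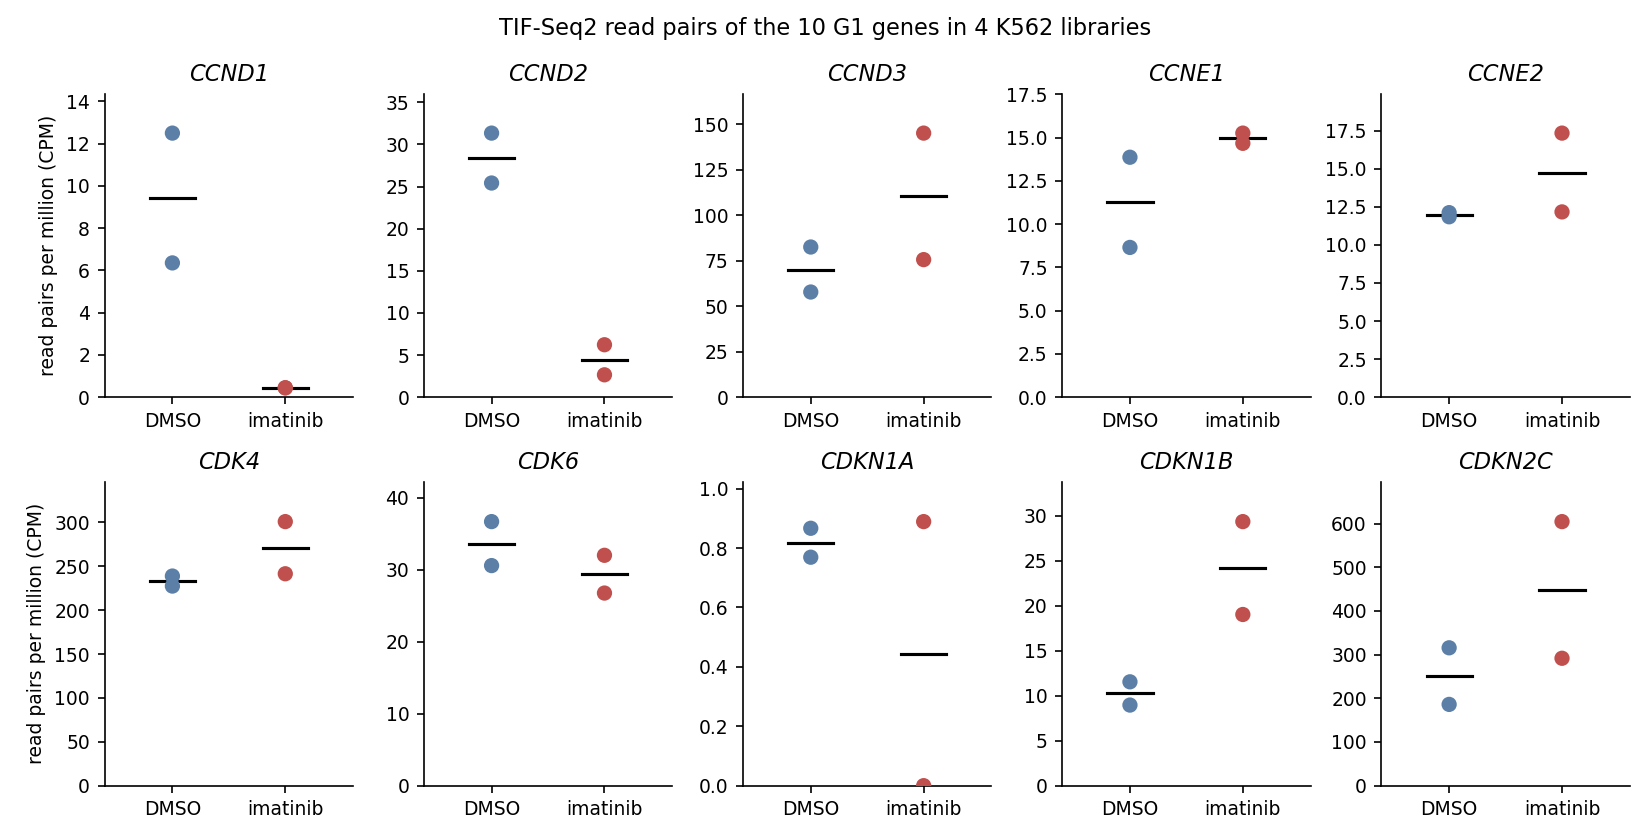
Levels in CPM (vertical axes from 0) of the 10 members in the 2 DMSO libraries (blue) and the 2 imatinib libraries (red), with the group mean as a black bar. CCND1 and CCND2 sit near the axis after imatinib, at 0.442 and 0.445 CPM and at 2.65 and 6.22 CPM, whereas the groups of CCND3, CDK6, CDKN1A and CDKN2C overlap.

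CCND1 (ENSG00000110092.4, chr11:69641156-69654474, plus strand), a partner of CDK4 and CDK6, had 22 and 65 read pairs in the DMSO libraries and 2 and 1 in the imatinib libraries. This was 9.43 ± 4.34 CPM against 0.443 ± 0.0016 CPM (mean ± SD, n = 2 libraries each), and the groups did not overlap. The fitted log2 fold change was −4.34 with an SE of 0.67 and an adjusted p of 0.0052 in edgeR's quasi-likelihood test. As the imatinib libraries held only 3 read pairs in all, the size is better read from the counts: the level in DMSO was 22.7 times that in imatinib, with an exact 95% interval of 7.50 to 112 that covers counting error only.

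The leading start of CCND1 was the annotated one. The region at 69641156, the start of the canonical transcript, took 11 of 22 and 34 of 65 read pairs in the DMSO libraries and 0 of the 3 in imatinib. Smaller regions at 69641091 and 69641214 took 5 pairs each over the 4 libraries. Poly(A) sites were of 3 kinds. The annotated end at 69654473, with a 3′ UTR of 3191 nt, took 9 and 34 read pairs in DMSO and 1 and 0 in imatinib. A short 3′ UTR of 326 nt, ending at 69651608 in the last exon, took 6 and 6 read pairs in DMSO and 0 and 1 in imatinib. The end in intron 4 at 69648706, before the last exon of the coding transcript, took 2 and 13 read pairs in DMSO and 0 in both imatinib libraries. All 13 read pairs of the short form and 14 of 15 of the intron 4 form began within 100 nt of an annotated start, whereas 25 of 44 at the annotated end did and the other 19 began in the last exon. With 3 read pairs in imatinib, a change in the use of these ends was not detectable at this depth.

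CCND2 (ENSG00000118971.9, chr12:4269771-4305353, plus strand), the D cyclin best known in blood cells, had 88 and 163 read pairs in DMSO and 12 and 14 in imatinib. Its level was 28.4 ± 4.19 CPM in DMSO and 4.44 ± 2.52 CPM in imatinib (mean ± SD, n = 2), so every DMSO library was above every imatinib library. The log2 fold change was −2.79 (SE 0.44, adjusted p = 0.0055, edgeR quasi-likelihood test), a level 6.91 times as high in DMSO. A second protein-coding gene of Gencode v44, ENSG00000285901.2, covers CCND2 on the same strand and shares its read pairs, so the genes of this pair cannot be told apart by position. It had 109 and 175 read pairs in DMSO and 23 and 18 in imatinib (log2 fold change −2.36, SE 0.36, adjusted p = 0.0050 in edgeR).

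Read pairs that began within 100 nt of an annotated CCND2 start numbered 57 and 107 in DMSO and 4 and 6 in imatinib. Those of CCND1 numbered 18 and 47 in DMSO and 2 and 1 in imatinib. With only such read pairs counted for every gene, a choice made after seeing the data, the log2 fold change of CCND2 was −3.48 (SE 0.53, edgeR adjusted p = 0.0028) and that of CCND1 was −3.86 (SE 0.67, edgeR adjusted p = 0.0052). Both genes passed the filter on low counts here through their DMSO libraries, the group where they were high. These fits use part of the same pairs and are no separate support. The promoter of CCND2 had 2 start regions 35 nt apart. The region at 4273797 took 45, 75, 0 and 2 read pairs in DMSO 1, DMSO 2, imatinib 1 and imatinib 2, and the region at 4273762, the annotated start, took 8, 24, 2 and 4. Of the pairs at these 2 positions, the DMSO libraries thus had more at the downstream one, and the 8 pairs at these positions in imatinib are too few to order them.

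Read pairs of CCND2 ended at 4 places, and the end of a pair went with where the pair began. The short 3′ UTR of 211 nt, ending at 4300220, held 42, 63, 4 and 5 read pairs in DMSO 1, DMSO 2, imatinib 1 and imatinib 2. A second short end 72 nt further, with a 3′ UTR of 283 nt, held 8, 17, 1 and 1. The annotated end at 4305350, with a 3′ UTR of 5341 nt, held 26, 51, 5 and 6, and an end in intron 2 at 4276576 held 7, 19, 2 and 2. In shares, the 211-nt form made up 47.7% (95% Wilson interval 37.6–58.0%), 38.9% (31.7–46.6%), 33.3% (13.8–60.9%) and 35.7% (16.3–61.2%) of the pairs, and the 5341-nt form 29.5% (21.0–39.8%), 31.5% (24.8–39.0%), 41.7% (19.3–68.0%) and 42.9% (21.4–67.4%). Both DMSO libraries were above both imatinib libraries for the short form and below them for the long form, but the intervals overlap widely. Over all tested poly(A) sites, 39.5% did not overlap between the groups in either direction. The test of site use held 2 CCND2 clusters, within these regions, so their values are 2 sides of 1 contrast. The short one had 39 and 52 pairs in DMSO and 3 and 4 in imatinib, the long one 24 and 47 against 4 and 6. Both passed the filter on low counts through the DMSO libraries, where CCND2 was high. With so few imatinib pairs, no difference in their use was detectable between the groups. The relative log2 fold change of the short site was −0.32 with an SE of 0.42 and that of the long site 0.32 with an SE of 0.45 (adjusted p = 1.00 each, edgeR diffSpliceDGE).

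The 2 forms differed in where their read pairs began. A 5′ end past the short ends leaves only the long end, so this part of the link is fixed by position. Of 114 read pairs that ended at the 211-nt site, 102 (89.5%) began within 100 nt of an annotated start, and of 88 that ended at the 5341-nt site, 10 (11.4%) did while 76 (86.4%) began inside the last exon. Among pairs from annotated starts, the 211-nt site had 35, 59, 3 and 5 in DMSO 1, DMSO 2, imatinib 1 and imatinib 2, the 283-nt site 8, 13, 1 and 0, and the 5341-nt site 2, 8, 0 and 0. Read pairs from an annotated start ended mostly at the short ends in both DMSO libraries. These ends had neither hexamer and 5 A in the next 10 nt, and priming inside the long 3′ UTR was not tested. Whether 5′ ends inside the last exon are capped starts or the ends of shortened molecules was not tested. The length of the mRNA moved with this measure: over all tested genes, the median share of pairs from annotated starts was 90.7% for canonical mRNAs of 1000 to 2000 nt, 64.4% for 4000 to 6000 nt and 43.5% above 6000 nt, and the canonical CCND2 mRNA has 6493 nt.

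**Figure D2:**
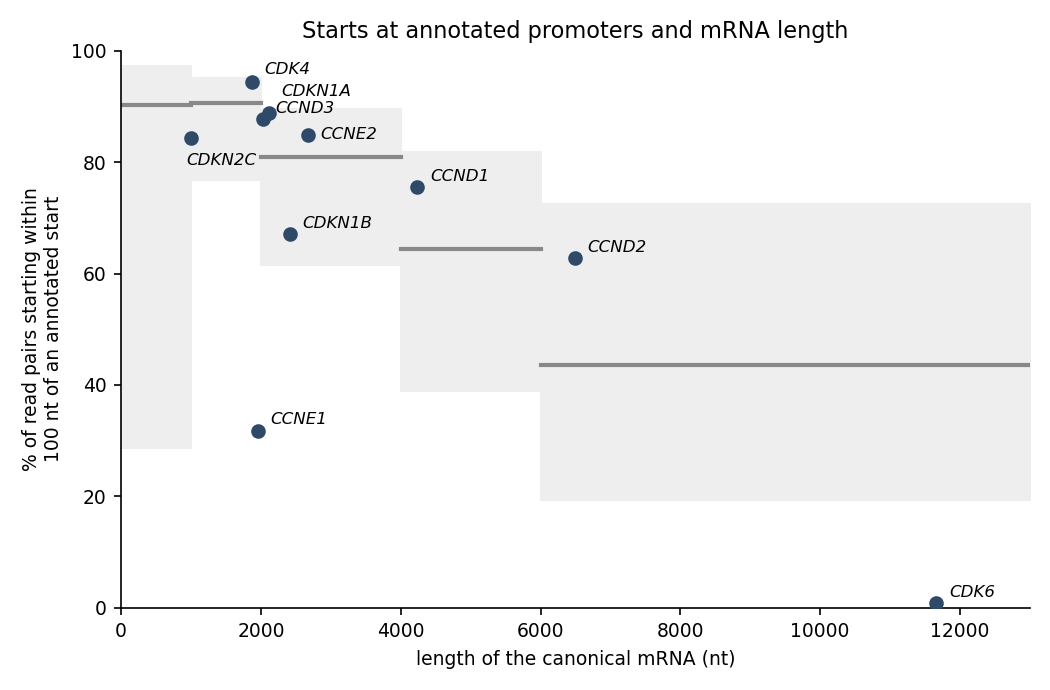
Share of a member's read pairs that began within 100 nt of an annotated transcript start (vertical axis, %), against the length of its canonical mRNA (horizontal axis, nt). Points are members over all 4 libraries, and gray lines and bands give the median and the middle 50% of all tested genes in 5 length classes. CCNE1 (31.8%) lies below the band of its length class, and CDK6 (0.835%) lies below all of them.

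CCND3 (ENSG00000112576.13, chr6:41934934-42050357, minus strand), the third D cyclin, had 200 and 429 read pairs in DMSO and 656 and 170 in imatinib. Its levels were 57.8 and 82.5 CPM in DMSO and 145 and 75.6 CPM in imatinib, so the groups overlapped and imatinib 1 stood above the other 3 libraries. The log2 fold change of 0.66 (SE 0.36) had an adjusted p of 0.25 in edgeR's quasi-likelihood test. Without imatinib 2 it was 1.02 with an adjusted p of 0.0054 in the same test, and without imatinib 1 it was 0.12 with an adjusted p of 0.84.

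CCND3 had 2 promoters far apart on the chromosome. The one at 41941764, from which the canonical transcript is read, took 73.0%, 75.8%, 71.6% and 74.1% of the pairs in DMSO 1, DMSO 2, imatinib 1 and imatinib 2. The far promoter at 42048690 took 10.0%, 8.39%, 7.47% and 5.29%, or 20, 36, 49 and 9 read pairs. The poly(A) site went with the promoter, in part by position, since the end at 41991425 lies upstream of the main promoter. From the main promoter 1003 of 1018 pairs (98.5%) ended at the annotated 3′ end around 41934956, with a 3′ UTR of 984 nt. From the far promoter 51 of 112 pairs (45.5%) did, and 54 (48.2%) ended at 41991425, before the main promoter is reached. These 54 pairs cannot hold the coding exons of the canonical transcript. By library, the early end took 9 of 20, 9 of 35, 31 of 48 and 5 of 9 of the pairs from the far promoter in DMSO 1, DMSO 2, imatinib 1 and imatinib 2. This was 45.0% and 25.7% in DMSO against 64.6% and 55.6% in imatinib, so both imatinib shares were above both DMSO shares, on 9 pairs in imatinib 2 and with no test. Taken as shares of the whole gene, 39.5% of all tested poly(A) sites did not overlap between the groups in either direction. As a share of all CCND3 pairs outside A-rich ends, the early end took 4.66% and 2.42% in DMSO and 8.25% and 4.19% in imatinib, so the groups overlapped.

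The annotated 3′ end of CCND3 itself was a pair of ends 22 nt apart, and libraries differed in their use more than groups did. The more distal end at 41934934 took 33.1%, 43.0%, 45.9% and 11.6% of the pairs at both ends in DMSO 1, DMSO 2, imatinib 1 and imatinib 2. Imatinib 2 was the lowest and imatinib 1 the highest, and the relative log2 fold change was −0.12 with an SE of 0.44 (adjusted p = 1.00, edgeR diffSpliceDGE).

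CCNE1 (ENSG00000105173.14, chr19:29811991-29824312, plus strand), a partner of CDK2, had 48 and 45 read pairs in DMSO and 69 and 33 in imatinib, or 13.9 and 8.65 CPM against 15.3 and 14.7 CPM. The groups did not overlap, but the log2 fold change of 0.43 (SE 0.36) did not pass the test (edgeR adjusted p = 0.45). It had 1 poly(A) site: 194 of its 195 pairs ended around 29824311, which leaves a 3′ UTR of 534 nt. Its 5′ ends were scattered. Only 62 pairs (31.8%) began within 100 nt of an annotated start, below the lower quartile of 76.8% for genes with mRNAs of 1000 to 2000 nt, and the largest start region, at 29812023, took 14 pairs, followed by 12 at 29823698 in the last exon and 10 at 29812090.

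CCNE2 (ENSG00000175305.18, chr8:94879770-94896678, minus strand), the second E cyclin, had 41 and 63 read pairs in DMSO and 55 and 39 in imatinib. Its levels of 11.8 and 12.1 CPM in DMSO and 12.2 and 17.3 CPM in imatinib lay close together, with a log2 fold change of 0.27 (SE 0.34, edgeR adjusted p = 0.63). The fitted value was just below 0 without imatinib 2, and also when pairs before A-rich sequence and pairs with ends too near or too far apart were left out together. The start was sharp: 33, 47, 40 and 25 pairs in DMSO 1, DMSO 2, imatinib 1 and imatinib 2 began in a region of 7 nt at the annotated start 94895201, and 16 in all began at 94895227.

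Read pairs of CCNE2 ended either around 94880227 at the annotated 3′ end, with a 3′ UTR of 1405 nt, or in intron 11 at 94881967, before the last exon. At 94881967 the next 10 nt hold 6 A, just under the cutoff of 7, and priming inside the RNA there was not tested. The intronic end took 15 of 31, 17 of 50, 5 of 28 and 3 of 28 pairs with fewer than 7 A in the 10 nt after the end. This was 48.4% (95% Wilson interval 32.0–65.2%) and 34.0% (22.4–47.8%) in DMSO against 17.9% (7.88–35.6%) and 10.7% (3.71–27.2%) in imatinib. Both DMSO shares were above both imatinib shares, which was so for 39.5% of all tested poly(A) sites in either direction. The site had too few read pairs to enter the test of site use, and an exact permutation test of 2 libraries against 2 cannot give a two-sided p below 0.333. A further 61 of 198 pairs (30.8%) ended before A-rich sequence. Of these, 29 ended at 94880234, beside the annotated 3′ end, with 7, 5, 8 and 9 in DMSO 1, DMSO 2, imatinib 1 and imatinib 2. Another 28 ended at 94893333 in intron 4, where all 10 of the next 10 nt are A. Imatinib 1 held 18 of these 28. The shares above leave out the A-rich ends, those beside the annotated end included.

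**Figure D3:**
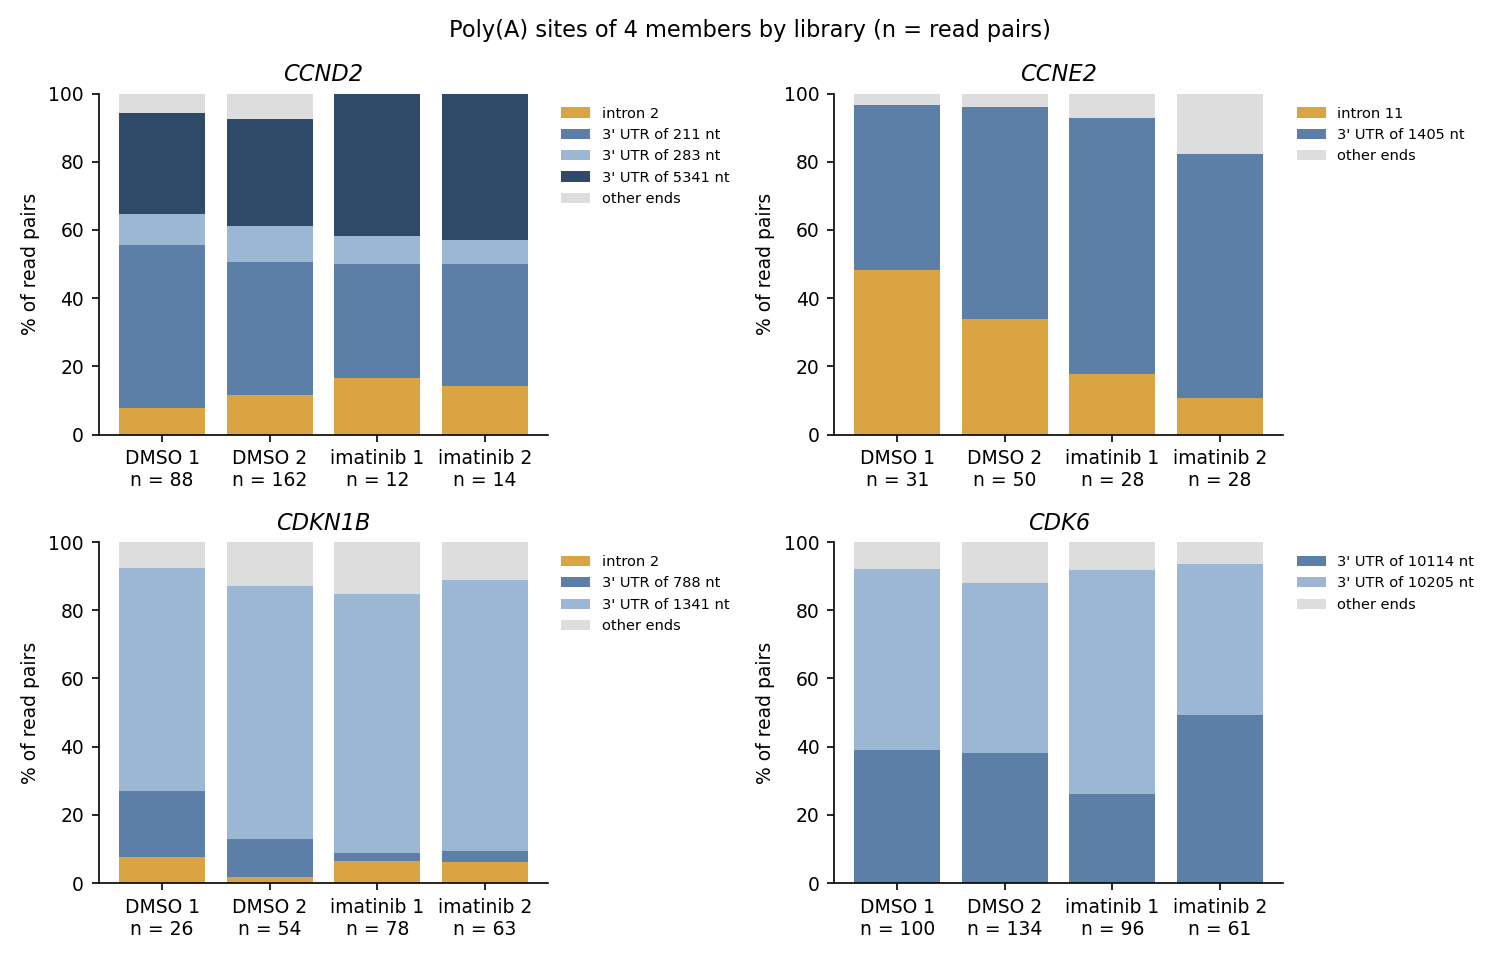
Share of read pairs (vertical axis, %) at each poly(A) region with at least 5% of the pairs of CCND2, CCNE2, CDKN1B and CDK6, by library, with ends before A-rich sequence left out and the number of pairs (n) under each bar. The intronic end of CCNE2, with 6 A in the next 10 nt, is at 48.4% and 34.0% in DMSO and at 17.9% and 10.7% in imatinib. The order of the 2 ends of CDK6 differs between the imatinib libraries.

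CDK4 (ENSG00000135446.17, chr12:57747727-57756013, minus strand), a kinase that D cyclins activate, had 827 and 1183 read pairs in DMSO and 1092 and 677 in imatinib. Its levels were 239 and 227 CPM in DMSO and 241 and 301 CPM in imatinib, and the log2 fold change was 0.22 (SE 0.25, edgeR adjusted p = 0.60). Its start was uniform: the region at the annotated start 57752310 took 92.5%, 91.3%, 89.7% and 90.8% of the pairs in DMSO 1, DMSO 2, imatinib 1 and imatinib 2. Within it, 3 start clusters were tested and none was called (smallest adjusted p = 0.88, edgeR diffSpliceDGE).

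Nearly all CDK4 read pairs ended well before the annotated 3′ end. Only 44 of the 3779 pairs ended within 100 nt of 57747727, the end of the canonical transcript with its 3′ UTR of 798 nt. The ends lay instead around 57748247, which leaves 278 nt of 3′ UTR, in the A-rich sequence shown above. Of all pairs, 1776 (47.0%) ended at positions with 7 or more A in the next 10 nt, 1774 of them around 57748251, where priming inside the mRNA is possible, against a median of 3.57% over all tested genes. This share was 57.1%, 45.1%, 35.5% and 56.6% in DMSO 1, DMSO 2, imatinib 1 and imatinib 2 and did not separate the groups. Whether the poly(A) tail or the A-rich stretch of the mRNA was primed was not tested.

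CDK6 (ENSG00000105810.10, chr7:92604921-92836573, minus strand), the second kinase of the D cyclins, had 127 and 159 read pairs in DMSO and 121 and 72 in imatinib. Its levels were 36.7 and 30.6 CPM in DMSO and 26.8 and 32.0 CPM in imatinib, with a log2 fold change of −0.20 (SE 0.30, edgeR adjusted p = 0.69). Its read pairs hardly reached the promoter. Only 4 of 479 pairs (0.835%) began within 100 nt of an annotated start, and 406 (84.8%) began in the last exon, in 83.5%, 87.4%, 81.8% and 86.1% of the pairs of DMSO 1, DMSO 2, imatinib 1 and imatinib 2. The largest start regions, at 92605726, 92605898 and 92605146, all lay in the last exon and took 39, 29 and 25 pairs. The canonical mRNA has 11663 nt, of which 10219 nt are 3′ UTR.

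Most pairs ended near the far end of the long annotated 3′ UTR. The end at 92604935, with a 3′ UTR of 10205 nt, took 53, 67, 63 and 27 pairs, and the end at 92605026, with 10114 nt, took 39, 51, 25 and 30 in DMSO 1, DMSO 2, imatinib 1 and imatinib 2. Of 210 pairs at 92604935, 0 began near an annotated start and 209 in the last exon. All 145 at 92605026 began in the last exon. The lengths are thus those of the canonical transcript. Whether these 5′ ends belong to shortened molecules was not tested. The shares of the proximal end were 39.0% and 38.1% in DMSO but 26.0% and 49.2% in imatinib, on either side of the DMSO values. The relative log2 fold change of the proximal end was −0.06 (SE 0.34, adjusted p = 1.00, edgeR diffSpliceDGE).

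CDKN1A (ENSG00000124762.14, chr6:36676460-36687337, plus strand), the p21 gene, had 3 and 4 read pairs in DMSO and 0 and 2 in imatinib and was not tested. A library with 0 read pairs allows up to 3. The level in DMSO was 2.74 times that in imatinib with an exact 95% interval of 0.52 to 26.99, so neither direction could be shown at this depth. All 9 pairs ended around 36687331, which leaves a 3′ UTR of 1531 nt, and 8 of them began within 100 nt of an annotated start, 4 at 36678710, 3 at 36678738 and 1 at 36678686. The other pair began at 36686551 in the last exon.

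CDKN1B (ENSG00000111276.12, chr12:12685498-12722369, plus strand), the p27 gene, had 31 and 60 read pairs in DMSO and 86 and 66 in imatinib. Its level was 10.2 ± 1.83 CPM in DMSO and 24.2 ± 7.30 CPM in imatinib (mean ± SD, n = 2), and both imatinib libraries, at 19.0 and 29.3 CPM, were above both DMSO libraries, at 8.95 and 11.5 CPM. The log2 fold change of 1.21 (SE 0.36) had an adjusted p of 0.053 in edgeR's quasi-likelihood test and so missed the threshold of 0.05 narrowly. It passed under 5 of 13 other settings, among them the one with only pairs from annotated starts (log2 fold change 1.49, SE 0.41, edgeR adjusted p = 0.037), and its adjusted p ranged from 0.0011 without imatinib 1 to 0.27 without DMSO 1.

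The leading start of CDKN1B was the annotated one at 12717368, with 13 of 31, 32 of 60, 51 of 86 and 45 of 66 pairs in DMSO 1, DMSO 2, imatinib 1 and imatinib 2. This was 41.9% and 53.3% in DMSO and 59.3% and 68.2% in imatinib, without overlap. Over all tested start sites, shares did not overlap between the groups for 56.5% in either direction. Most CDKN1B read pairs ended at the annotated end 12722368, with 17, 40, 59 and 50 pairs and a 3′ UTR of 1341 nt. A proximal end at 12721815, with a 3′ UTR of 788 nt, took 5 and 6 pairs in DMSO and 2 and 2 in imatinib, or 19.2% (95% Wilson interval 8.51–37.9%) and 11.1% (5.19–22.2%) against 2.56% (0.71–8.88%) and 3.17% (0.87–10.9%). The DMSO shares were above the imatinib shares, but these are 15 pairs in all, the intervals overlap, and the site had too few pairs for the test of site use. Over all tested poly(A) sites, shares did not overlap between the groups for 39.5% in either direction. An end at 12719508, in the intron that splits the 3′ UTR of the canonical transcript, took 12 pairs. The 3′ UTR lengths are counted along that transcript, and pairs of ends do not show whether this intron was spliced out. Another annotated coding transcript, CDKN1B-205, has 2 exons and a 3′ UTR of 3266 nt. A further 19 pairs ended before A-rich sequence at 12697153, upstream of the canonical transcript.

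CDKN2C (ENSG00000123080.12, chr1:50960745-50974634, plus strand), the p18 gene, had 644 and 1641 read pairs in DMSO and 2733 and 656 in imatinib. Its levels of 186 and 316 CPM in DMSO and 604 and 292 CPM in imatinib overlapped, and the log2 fold change of 0.84 (SE 0.39) had an adjusted p of 0.18 in edgeR's quasi-likelihood test. Imatinib 1 stood above the other 3 libraries. Without imatinib 2 the log2 fold change was 1.24 (edgeR adjusted p = 0.0002), with a block that paired DMSO 1 with imatinib 2 and DMSO 2 with imatinib 1 (the crossed pairing, chosen after seeing the data) it was 0.80 (edgeR adjusted p = 0.0008), and without imatinib 1 it was 0.23 (edgeR adjusted p = 0.63).

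**Figure D4:**
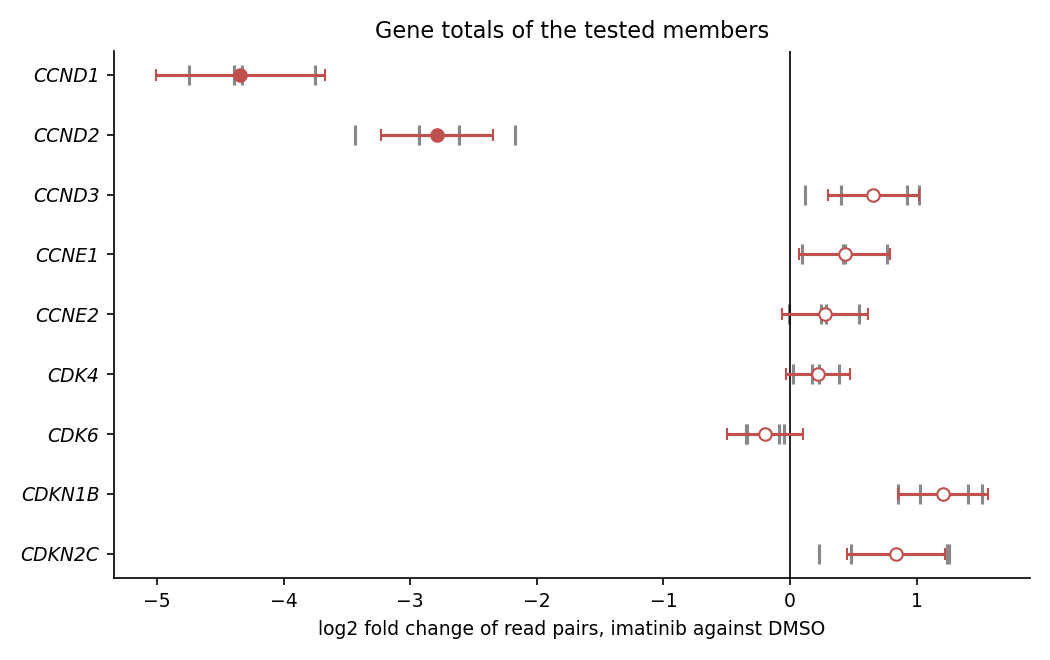
Log2 fold change of read pairs per gene, imatinib against DMSO (horizontal axis), for the 9 tested members. Circles are the fitted values with 1 SE on either side, filled where the adjusted p was under 0.05, and gray ticks are the values with each of the 4 libraries left out. CCND1 and CCND2 stay below −2.17 throughout, and the ticks of CCND3 and CDKN2C spread widely, with lowest values of 0.12 and 0.23.

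CDKN2C was read from 2 promoters, which are shown here because the start results of this gene turn on the choice between them. The annotated transcript starts at these 2 promoters lie 1539 nt apart, and the downstream transcript, the canonical one, begins behind the upstream one on the same strand. Another annotated transcript starts further upstream, at 50960745, with a 5′ UTR of 2034 nt, and no start region with at least 5% of the pairs lay there. The windows are 30 nt of hg38 with the most used first base in capitals.
CDKN2C, upstream start, chr1:50968762-50968791, plus strand: aatttttttcttttcAaaaaaagctgatga
CDKN2C, downstream start, chr1:50970239-50970268, plus strand: tactccagattaaccAtcccagtccttctg
Both transcripts have the same coding exons, for 168 amino acids, but the 5′ UTR has 1205 nt from the upstream annotated start and 124 nt from the downstream one.

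The upstream region, around 50968777, took 523 of 644, 1343 of 1641, 1726 of 2733 and 499 of 656 pairs in DMSO 1, DMSO 2, imatinib 1 and imatinib 2. The downstream region, around 50970254, took 60, 106, 708 and 105. Its share was 9.32% (95% Wilson interval 7.31–11.8%) and 6.46% (5.37–7.75%) in DMSO and 25.9% (24.3–27.6%) and 16.0% (13.4–19.0%) in imatinib. Both imatinib libraries were thus above both DMSO libraries. The intervals of the imatinib libraries overlap neither those of DMSO nor each other. They cover counting error only, not the spread between libraries. Shares of a start site did not overlap between the groups for 56.5% of all tested start sites in either direction.

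In the test of start site use the upstream region was split into 7 of the 10 CDKN2C clusters. The main downstream cluster had 43 and 63 pairs in DMSO and 449 and 80 in imatinib, and a log2 fold change of 1.19 relative to the other clusters (SE 0.42). Its p was 0.0087 before and 0.14 after adjustment over 11788 sites (edgeR diffSpliceDGE), so the call was not made. It was made without imatinib 2 (1.30, edgeR adjusted p = 0.041) and with the crossed pairing (1.10, edgeR adjusted p = 0.019), and not in the other 3 fits that left out a library. Of 19 start clusters of CCND3, CDK4 and CDKN2C in this test, 0 were called and 1 had an unadjusted p under 0.05, where 3.61% of all sites were called (1.51% higher and 2.10% lower) and 12.0% had such a p.

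**Figure D5:**
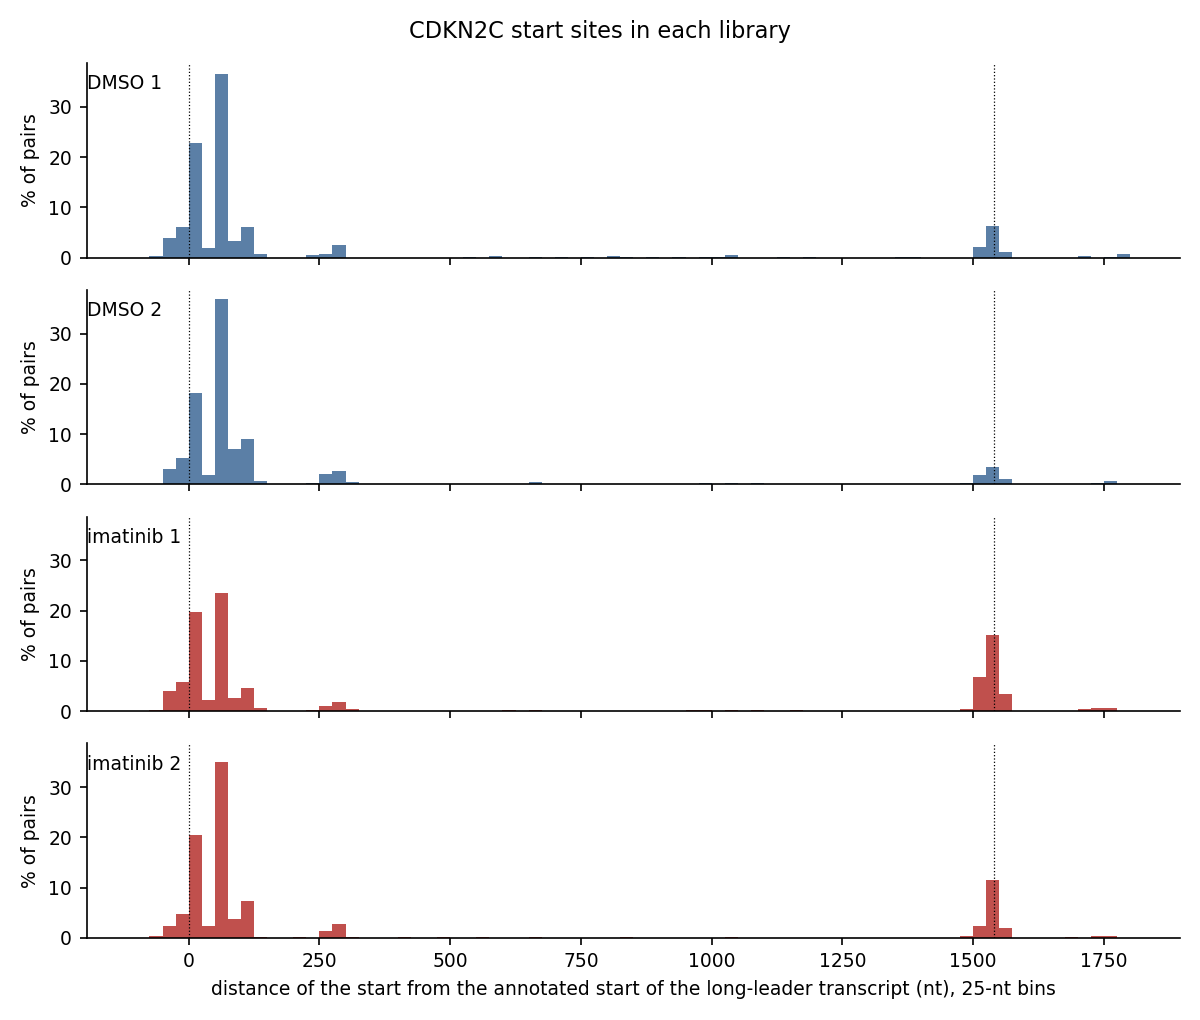
Share of CDKN2C read pairs (vertical axes, %) by the distance of their 5′ end from the annotated start of the upstream transcript (horizontal axis, nt, bins of 25 nt), 1 panel per library, with DMSO in blue and imatinib in red. Dotted lines mark the annotated starts of the upstream and the downstream transcript, 1539 nt apart, and the peak at the second line is higher in both imatinib libraries.

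Both promoters of CDKN2C led to the same poly(A) site. From the upstream region 3948 of 4080 pairs (96.8%) ended around 50974633, and from the downstream region 946 of 979 pairs (96.6%) did, which leaves a 3′ UTR of 363 nt in both cases. No change was detectable at the 3′ end: the use of the main poly(A) cluster had a relative log2 fold change of −0.01 (SE 0.30, adjusted p = 1.00, edgeR diffSpliceDGE). Over the 4 members with at least 2 tested poly(A) clusters (CCND2, CCND3, CDK6 and CDKN2C), 0 of 8 clusters were called in edgeR and 0 had an unadjusted p under 0.05, against 0.115% (0.0176% higher and 0.0970% lower) and 5.16% of all 11342 tested clusters.

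Of the retinoblastoma and E2F genes, 17 of 18 were tested, 1 rose (5.88%, against 8.69% of all tested genes) and 0 fell (6.15% of all tested genes), with a median log2 fold change of 0.39. It was E2F2, an activating E2F, with 70 and 100 read pairs in DMSO and 206 and 80 in imatinib (log2 fold change 1.05, SE 0.30, edgeR adjusted p = 0.048). Of the other cyclins, CDKs and their phosphatases and kinases, 13 of 14 were tested and 0 were called in edgeR, with log2 fold changes from −0.76 to 0.63 and a median of −0.16.

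Among the other CDK inhibitors 3 of 5 were tested and 0 were called, and CDKN2A and CDKN2B had 0 read pairs in all 4 libraries. CDKN1C (p57), which is named here after its values were seen, had 59 and 81 read pairs in DMSO and 292 and 56 in imatinib, a log2 fold change of 1.48 (SE 0.44, edgeR adjusted p = 0.052). Of the genes for the turnover of G1 cyclins and CDK inhibitors, 15 of 16 were tested, 1 rose (6.67%, against 8.69% of all tested genes) and 0 fell, with a median log2 fold change of −0.14. It was RNF123, a subunit of a ubiquitin ligase for p27, with 25 and 37 read pairs in DMSO and 128 and 42 in imatinib (log2 fold change 1.73, SE 0.36, edgeR adjusted p = 0.015).

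All 13 genes of S phase driven by E2F were tested, and 3 rose (23.1%, against 8.69% of all tested genes) and 0 fell (6.15% of all tested genes), with a median log2 fold change of 0.13. CDT1, a factor that licenses replication origins, had 541 and 1099 read pairs in DMSO and 2148 and 709 in imatinib (log2 fold change 1.10, SE 0.30, edgeR adjusted p = 0.039), and MCM2, a subunit of the replicative helicase, had 115 and 181 against 292 and 164 (log2 fold change 1.01, SE 0.28, edgeR adjusted p = 0.041).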

How the data were processed

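Capped 5′ ends and poly(A) sites were paired by TIF-Seq2 in 4 K562 libraries. The authors trimmed reads with cutadapt 1.16, aligned both ends to hg38 with STAR 2.5.3a, removed duplicates by molecular identifier and deposited counts of read pairs per combination of end positions, without normalization. The submitters' processing notes also name bedtools 2.27.1 and minimap2 2.16. A PacBio file of gene models was not used, and no column was left unmatched to a sample.

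Pairs were summed per Gencode v44 gene (ends within 1000 bp), filtered with filterByExpr and tested with edgeR 4.0.16 (TMM factors, quasi-likelihood test, Benjamini-Hochberg, threshold 0.05) in R 4.3.3. A pair in overlapping genes counted for each. Positions joined within 10 bp formed start and poly(A) clusters, tested with diffSpliceDGE. 3′ ends with 7 or more A in the next 10 nt were left out of poly(A) site use. Depth limits precision, and Wilson and exact intervals cover counting error only.

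The members and gene lists were chosen with earlier results of these data known. All members were named, with each start or poly(A) region of at least 5% of a member's pairs, and up to 4 called genes per list. The values of 1 called gene of the S phase list are not reported here. On simulated data the gene test recovered 80.4% of 4-fold and 18.6% of 2-fold changes over 11787 genes, the poly(A) test 23.9% and 2.20% over 10428 sites, and the start test 34.1% and 4.49% over 10613 sites. Alternatives were other scaling, DESeq2 1.42.0, filters, windows, joining distances, a replicate block and leaving out each library. The crossed pairing and the restriction to annotated starts were chosen after seeing the data.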

Additional observations from a re-analysis of the deposited data

How the results depend on the processing

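Over all genes 1800 were called, against 2736 with no filter on low counts, 1148 with the replicate block and 3723 with the crossed pairing, and from 820 to 3955 with 1 library left out. Of these calls 58.6% were higher after imatinib, and 48.5% with DESeq2. The members called were 2, but 4 with the crossed pairing, 1 with pairs of exactly 1 gene (CCND2 could not be tested there, as it shares its pairs with an overlapping gene) and 2 to 4 with 1 library left out. CCND1 was called under 13 of 13 alternatives and CCND2 under 12 of 12. CDKN1B was also called with no filter on low counts, with pairs from annotated starts only, and with A-rich, short and far-apart pairs left out together. It was called without imatinib 1 and with the crossed pairing too. CCND3 was called without imatinib 2, and CDKN2C without imatinib 2 and with the crossed pairing. The log2 fold change of CCNE2 was −0.0173 with A-rich, short and far-apart pairs left out together and ranged from −0.0063 (without imatinib 2) to 0.55 (without imatinib 1) with 1 library left out, against 0.27, and the cause was not tested. Start sites called were 425, against 149 with the replicate block and from 34 to 349 with 1 library left out. Poly(A) sites called were 13, against 0 with the replicate block (316 at an unadjusted p under 0.05 in edgeR) and 47 with the crossed pairing, and from 0 (without DMSO 2, 252 at an unadjusted p under 0.05 in edgeR) to 73 with 1 library left out. Same-numbered libraries deviated with r = −0.25 across 12135 genes, so that the numbers are not shown to pair the libraries, and the replicate block left the 2 members called. With 1 library left out, the lone library of its group was assumed to vary like the other group. CCND1 and CDKN1A in imatinib, CCNE2, CDKN1B and CCND2 site use rest on few read pairs.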
